A study of Mus musculus with 27 samples.

Results

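The genes described here encode the voltage-gated and related potassium, sodium and calcium channels of the mouse, with their accessory subunits. They were chosen by symbol (the Kcn, Scn and Cacn families) and by signal: a gene was a member when at least 1 of its probes had a detection p-value below 0.05 on at least 3 of the 27 arrays. Of 119 array genes with such a symbol, 72 were members, out of 12814 genes that passed the same signal filter. The members comprised 49 potassium, 7 sodium and 16 calcium channel genes. Of the 47 genes left out, 22 were detected on no array.

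Bead arrays (Illumina) measured RNA from 8 groups of C57BL/6 cells. ESdM 20 and ESdM 22 were a pair of microglia-like lines grown from embryonic stem cells and kept in culture past day 51 (3 arrays each). Microglia (3 arrays) and astrocytes (3 arrays) were brain cells labelled day 3, and neurons (3 arrays) were brain cells of embryonic day 15 to 16. CD8 Tnaive cells were naive T cells from spleens of mice aged 6 to 8 weeks (5 arrays), and BM-DC (3 arrays) and MF (4 arrays) came from bone marrow and were labelled day 7. The last pair of names is not spelled out in the labels; dendritic cells and macrophages are the readings used here. No transgene or treatment is named, age differs along with cell type, and the labels do not say whether arrays of 1 group came from separate cultures or animals, so p-values may measure technical spread.

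Voltage-gated channels open a selective pore when the membrane potential changes: sodium channels carry the upstroke of the action potential, calcium channels turn depolarisation into calcium entry, and potassium channels restore the resting potential. Neurons combine many of these pores with beta, alpha2delta and other accessory subunits that set their number at the membrane and their gating. Cells that fire no action potentials, such as astrocytes, macrophages and T cells, use mainly potassium channels, which set the resting potential, and with it the driving force for calcium entry, and which let potassium leave the cell.

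Promoters of 5 members that the results below turn on are shown to place the genes in the genome, as the 250 bases before the RefSeq start on GRCm38.p6, 5′ to 3′ on the gene's strand. Kcnk13, Kcnn4 and Cacna1f differed among the macrophage-related groups. Capitals in them mark GAGGAA, a core bound by PU.1, the master regulator of macrophage genes. Kcnh6 was highest in BM-DC and Kcnip3 highest in neurons. Capitals in these mark the left part (TTCAGCACC) and the right part (GGACAGC) of the RE1 element, which REST, a repressor of neuronal genes, binds.
Kcnk13 (chr12:99964249-99964498, plus strand): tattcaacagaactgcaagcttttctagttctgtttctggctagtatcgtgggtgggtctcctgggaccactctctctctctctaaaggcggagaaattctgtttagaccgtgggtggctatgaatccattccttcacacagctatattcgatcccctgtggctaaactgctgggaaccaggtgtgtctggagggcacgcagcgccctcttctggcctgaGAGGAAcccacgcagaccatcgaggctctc
Kcnn4 (chr7:24370013-24370262, plus strand): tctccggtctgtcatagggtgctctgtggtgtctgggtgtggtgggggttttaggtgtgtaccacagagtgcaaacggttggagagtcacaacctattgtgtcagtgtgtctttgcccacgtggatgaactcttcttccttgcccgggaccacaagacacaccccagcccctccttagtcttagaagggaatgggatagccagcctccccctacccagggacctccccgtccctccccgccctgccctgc
Cacna1f (chrX:7606853-7607102, plus strand): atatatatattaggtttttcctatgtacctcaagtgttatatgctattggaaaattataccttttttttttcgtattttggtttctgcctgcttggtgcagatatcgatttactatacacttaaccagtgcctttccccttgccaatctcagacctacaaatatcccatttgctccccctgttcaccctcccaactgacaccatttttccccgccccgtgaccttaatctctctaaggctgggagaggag
Kcnh6 (chr11:106007898-106008147, plus strand): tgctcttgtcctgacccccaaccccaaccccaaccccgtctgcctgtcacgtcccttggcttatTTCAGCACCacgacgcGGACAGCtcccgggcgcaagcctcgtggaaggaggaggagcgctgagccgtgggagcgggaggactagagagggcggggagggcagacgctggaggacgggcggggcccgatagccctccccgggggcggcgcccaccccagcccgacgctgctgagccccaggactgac
Kcnip3 (chr2:127522095-127522344, minus strand): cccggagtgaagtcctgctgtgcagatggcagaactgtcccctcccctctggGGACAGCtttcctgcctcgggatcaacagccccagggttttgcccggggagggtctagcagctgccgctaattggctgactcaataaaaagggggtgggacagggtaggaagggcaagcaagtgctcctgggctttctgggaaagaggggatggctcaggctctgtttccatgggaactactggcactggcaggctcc
The Kcnk13 promoter held 1 GAGGAA, 30 bases before the start, while those of Kcnn4 and Cacna1f held none. The Kcnh6 promoter held both parts, 186 and 170 bases before the start. Kcnip3 had 3 promoters, and the 1 shown was picked because it held a site. It held the right part, 198 bases before the start, and the other Kcnip3 promoters held neither part. RefSeq had a promoter for 54 of the 72 members (83 promoters in all). With both strands searched, GAGGAA was in 20.5% of the members' promoters, against 23.3% of all 32851. The share with GGACAGC was 12% among members (10 of 83 promoters) and 5.28% among all. The share with TTCAGCACC was 1.2% among members (1 of 83, the Kcnh6 promoter shown) and 0.301% among all. The E-box CAGCTG was in 21.7% of member promoters and 13.0% of all, and the cAMP response element TGACGTCA in 0.0% and 1.55%. Such a match is a stretch of letters and not a shown binding site. Of the 18 members highest in neurons (below), 11 matched, with 17 promoters. These had a median GC content of 68.8%, against 58.4% over all member promoters and 52.4% over all promoters. Among these 17 promoters, 2 held GGACAGC (11.8%, close to the share over all members) and 0 held TTCAGCACC.

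Before the comparisons, each labelled cell type was set against lists of its markers. Only markers that passed the same signal filter were counted. This kept 11 of 14 neuron, 10 of 11 astrocyte, 8 of 9 T-cell and 9 of 10 dendritic-cell markers on the array. Markers with too little signal drop out of these counts, so full scores had in part to come out this way. Neurons had all 11 neuron markers on every array, astrocytes all 10 astrocyte markers and CD8 Tnaive cells all 8 T-cell markers. BM-DC had 7 of 9 dendritic-cell markers on every array, with Flt3 and Zbtb46 on none. The arrays labelled microglia had 12 of 13 macrophage-lineage markers but only 2 of 9 microglia core markers. Of the core list, Cx3cr1, P2ry12, Tmem119, Fcrls, Olfml3 and Siglech were on none of them. Both ESdM lines had 10 of 13 macrophage-lineage markers on every array. ESdM 20 had 3 of 9 core markers and ESdM 22 had 2 of 9, with P2ry12, Fcrls, Olfml3 and Siglech on no ESdM array. On every array of their group, neurons carried 0 of 13 macrophage-lineage markers and astrocytes 12 of 13, with 7 of 9 microglia core markers as well. MF carried 13 of 13 macrophage-lineage markers, BM-DC 12 of 13 and CD8 Tnaive cells 5 of 13. The means of that list on CD8 Tnaive arrays ran from 4.865 to 6.441. Neurons had 8 of 10 astrocyte markers on every array, and astrocytes 5 of 11 neuron markers. Astrocytes also had 4 of 4 fibroblast, 3 of 6 endothelial and mural and 3 of 6 oligodendrocyte-lineage markers on every array. In neurons these counts were 1, 1 and 2. Raw intensity stood apart in BM-DC (array medians 27.6 to 28.6, against 80.1 to 113 elsewhere). Neurons and astrocytes shared 1 chip, microglia and ESdM shared 2 others, and every other group sat on chips of its own. Only neurons with astrocytes, ESdM with microglia, and the ESdM lines with each other were compared on shared chips. In every other comparison chip and group cannot be told apart.

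More channel genes were detected in neurons than in any other group. At a detection p-value below 0.05, the 3 neuron arrays detected 45, 46 and 47 of the 72 members and the astrocyte arrays 29, 36 and 36, while every other array detected 20 or fewer. On all arrays of their group, neurons had 48.6% of members and astrocytes 29.2%, against 5.56% to 15.3% in the 6 other groups. Over all 12814 genes the same share was 61.9% in neurons, 68.9% in astrocytes and 54.4% to 64.6% in the rest. Detection chose the members, and 16 of them would have missed the minimum without the neuron arrays, so these shares and the counts of members below are a description and had in part to come out this way. In these bulk samples, fewer cells of a type and less RNA per cell cannot be told apart.

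**Figure D1:**
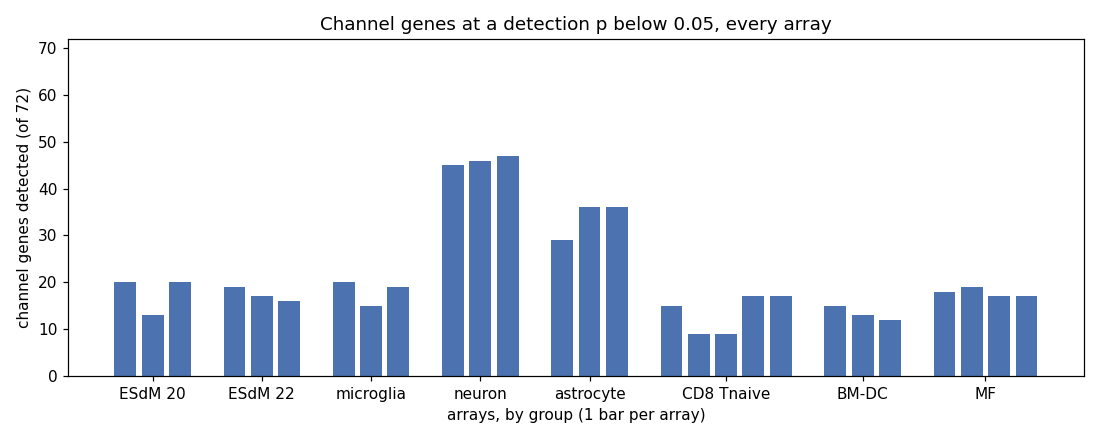
Number of the 72 channel genes with a detection p-value below 0.05 on each of the 27 arrays (bars, vertical axis in genes), by group. The 3 neuron bars stand at 45 to 47 and the astrocyte bars at 29 to 36; all others are at 20 or below.

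By class, 16 of the 34 genes for voltage-gated potassium pores were members, as were 7 of 14 two-pore potassium channels and 9 of 13 inward rectifiers. All 3 sodium channel beta subunits were members, with 4 of 7 sodium pores, and so were 7 of 9 calcium pores, 2 of 3 alpha2delta, all 3 calcium beta and 4 of 8 gamma subunits. Just inside the minimum, with 3 arrays, were Cacna1c, Cacna1g, Cacna2d3, Cacng2, Cacng4, Kcna10, Kcnh7, Kcnip1, Kcnip4, Kcnj5, Kcnj6, Kcnk5, Kcnma1, Kcnv1 and Scn1a. Just outside, with 2 arrays, were Cacng3, Kcna1, Kcnc2, Kcnd3, Kcng2, Kcnh1, Kcnmb2, Kcns2 and Kcnv2. One member is not a channel: Kcnq1ot1 is an antisense non-coding RNA that silences neighbouring imprinted genes.

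Levels below are log2 normalised intensities of the brightest probe of each gene that passed the filter, and a gene was called when limma's Benjamini-Hochberg adjusted p was below 0.05 and the log2 difference at least 1. The faintest detected signal on any array lay between 4.52 and 4.78, so values near 4.3 are background. Where the gene was undetected on every array of the lower group, its fold is a lower bound. Of the 72 members, 38 were called in at least 1 of the 21 comparisons between groups, where 75.9% of all genes tested were.

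**Figure D2:**
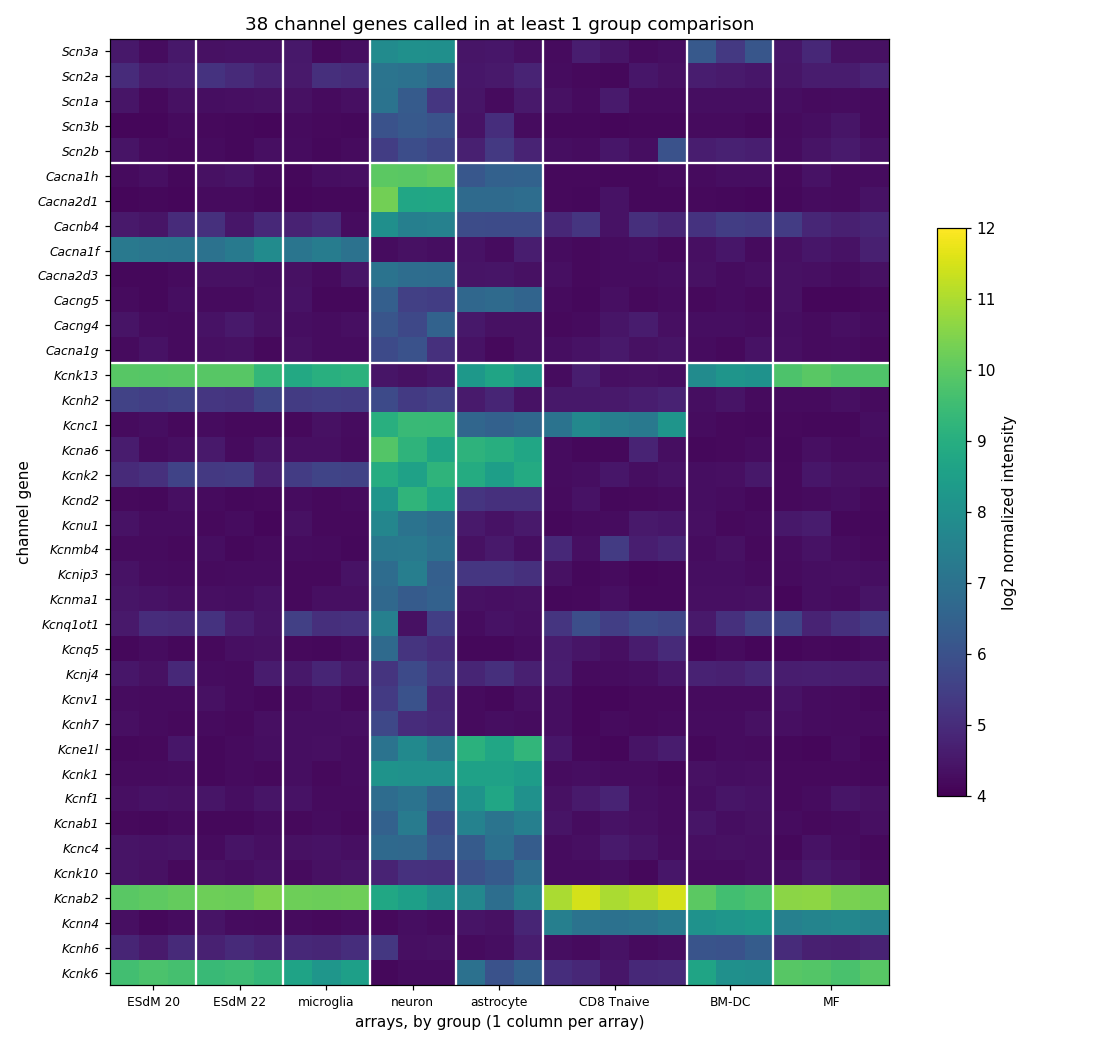
Log2 normalised intensity (colour) of the 38 channel genes called in at least 1 comparison (rows) on the 27 arrays (columns, by group). Most rows are bright in the neuron or neuron and astrocyte columns; Kcnk13, Kcnk6, Kcnn4, Cacna1f and Kcnab2 are bright in blood-lineage or ESdM columns.

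Neurons were set against astrocytes to compare the channels on arrays labelled as nerve cells and as a glial type. Both carried markers of other cells (above). The call was higher in neurons for 20 members (27.8%, where 14.8% of all genes tested were higher) and lower for 5 (6.94%, where 17.6% of all genes were lower). Every called sodium (4) and calcium (6) channel gene was higher in neurons, and the potassium group was split, with 10 higher and 5 lower. On the probes used, Scn1a, Scn3b, Cacna1g, Cacna2d3, Cacng4, Kcnma1, Kcnq5, Kcnu1 and Kcnv1 reached the detection minimum only through the neuron arrays. Their direction had in large part to come out this way, so the split by family is a description. The median log2 difference was 0.18 over members and -0.003 over all genes. Without background correction 13 members were called in place of 25. The share of all genes called in that setting is not set beside it, so the drop is not read as particular to the members.

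Of the 4 sodium channel pores among the members, Scn1a, Scn2a and Scn3a were higher in neurons. Scn10a, known from sensory neurons, was on 0 neuron and 2 astrocyte arrays and was not called (-0.24, limma adjusted p = 0.299). Scn3a, the pore form prominent in the embryonic brain, was at 7.86, 8.02 and 7.98 in neurons, against 4.46, 4.47 and 4.33 in astrocytes. It was detected on all 3 neuron arrays and on no astrocyte array, and neurons were at least 10.6-fold higher (log2 difference 3.53 ± 0.18 SE, limma adjusted p = 2.36e-15). Scn2a, the pore of axon initial segments early in development, was at 7.06, 6.97 and 6.66 in neurons and 4.47, 4.54 and 4.81 in astrocytes. Its log2 difference was 2.29 ± 0.15 (limma adjusted p = 5.38e-13), and the groups did not overlap. Its 3 other probes that passed the filter gave 0.6, 2.71 and 2.93.

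Scn1a, the pore associated with inhibitory interneurons and with Dravet syndrome, was at 7.04, 6.29 and 5.27 in neurons and 4.46, 4.22 and 4.54 in astrocytes. The neuron arrays spread widely but all lay above the astrocyte arrays, by at least 3.15-fold on average (limma adjusted p = 1.93e-07). Of the beta subunits, which tether the pore and adjust its gating, Scn3b was at 6.03, 6.23 and 6.05 in neurons and 4.38, 5.04 and 4.26 in astrocytes (log2 difference 1.54). A second Scn3b probe gave 0.8. Scn2b, at 5.45, 5.88 and 5.66 in neurons and 4.69, 5.32 and 4.79 in astrocytes, did not reach the minimum difference (0.73, limma adjusted p = 0.0288).

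Calcium channel genes covered every kind of subunit. Cacna1h, a T-type pore that opens at low voltage, was at 9.98, 9.96 and 10.05 in neurons and 6.16, 6.50 and 6.50 in astrocytes. Both groups were tight, and the log2 difference was 3.61 ± 0.10 (SE; limma adjusted p = 7.14e-21), or 12.2-fold. Cacna1g, another T-type pore, was at 5.79, 6.03 and 5.10 in neurons and on no astrocyte array (at least 2.13-fold). The alpha2delta subunits carry pores to the membrane, and Cacna2d1 is the target of gabapentin. It was at 10.30, 8.74 and 8.77 in neurons and 6.77, 6.75 and 6.85 in astrocytes, so neuron array 1 stood above the rest of its group. Its log2 difference was 2.48 ± 0.23 (limma adjusted p = 4.05e-10), but its other probes gave 1.13 and -0.46.

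Cacna2d3 was at 7.04, 6.87 and 6.83 in neurons and on no astrocyte array, at least 5.16-fold higher in neurons. The beta subunit Cacnb4, whose loss causes ataxia and seizures in the lethargic mouse, was at 7.99, 7.44 and 7.50 in neurons and 5.85, 5.84 and 5.83 in astrocytes. Its log2 difference was 1.81 ± 0.22 (limma adjusted p = 7.09e-08), and a second probe gave 1.53. Cacng4, classed as a gamma subunit but known to escort AMPA-type glutamate receptors, was at 6.10, 5.73 and 6.52 in neurons and on no astrocyte array (at least 2.97-fold).

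**Figure D3:**
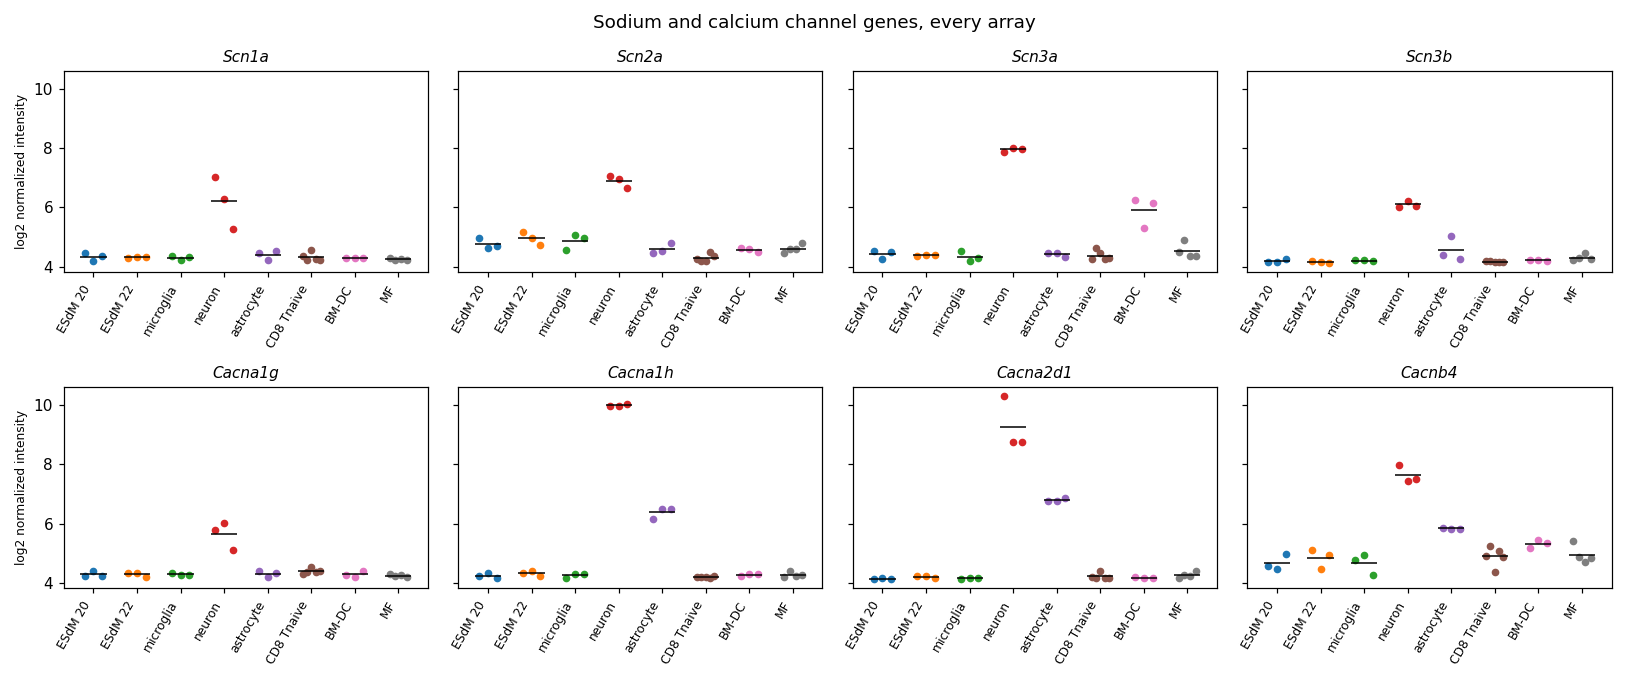
Log2 normalised intensity (vertical axis) of Scn1a, Scn2a, Scn3a, Scn3b, Cacna1g, Cacna1h, Cacna2d1 and Cacnb4 on every array (points), with group means as lines. In each panel all 3 neuron points lie above the 3 astrocyte points; the Cacna2d1 and Scn1a panels show the widest spread among neuron arrays.

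Potassium channels higher in neurons began with Kcnd2, the pore of the transient A-type current of dendrites, at 8.18, 9.25 and 8.72 in neurons and 5.24, 5.12 and 5.11 in astrocytes. The log2 difference was 3.56 ± 0.15 (SE; limma adjusted p = 6.99e-17), and a second probe gave 1.52. Kcnip3 (calsenilin, or DREAM), a calcium sensor that binds the Kcnd pores, was at 6.84, 7.43 and 6.41 in neurons and 5.25, 5.25 and 5.10 in astrocytes (1.69). Its promoter is the last of those shown above. Kcnc1, a pore that lets neurons fire fast, was at 9.04, 9.41 and 9.41 in neurons and 6.63, 6.47 and 6.67 in astrocytes, with no overlap (2.69, limma adjusted p = 3.84e-13).

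The large-conductance potassium channel, opened jointly by calcium and voltage, was represented by its pore and a brain beta subunit. Kcnma1, the pore, was at 6.71, 6.31 and 6.50 in neurons and on no astrocyte array, at least 3.89-fold higher, with a second probe at a log2 difference of 0.76. Kcnmb4, the beta subunit, was at 7.19, 7.23 and 6.97 in neurons and 4.36, 4.54 and 4.30 in astrocytes (2.73, limma adjusted p = 5.66e-14; a second probe gave 2.03). Kcnu1, a relative of Kcnma1 known from sperm, was at 7.66, 7.05 and 6.82 in neurons and on no astrocyte array (at least 6.20-fold). These 3 genes did not overlap between the groups.

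The remaining neuronal calls were smaller or more variable. Kcnq5, a pore of the M-current that damps firing, was at 6.75, 5.20 and 5.01 in neurons and on no astrocyte array (at least 2.15-fold). Without neuron array 1 its log2 difference was 0.89, under the minimum. Kcnv1, a modulatory subunit that forms no channel alone, was at 5.35, 6.02 and 4.85 in neurons and on no astrocyte array (at least 1.81-fold), and fell under the minimum without neuron array 2 (0.86). The non-coding Kcnq1ot1 was at 7.47, 4.37 and 5.48 in neurons and 4.28, 4.38 and 4.32 in astrocytes: the groups overlap, and without neuron array 1 the call was lost (0.60, limma adjusted p = 0.107).

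Kcnab2, a beta subunit of the Kcna channels, was at 8.78, 8.52 and 8.07 in neurons and 7.75, 6.90 and 7.56 in astrocytes (1.06 ± 0.19, limma adjusted p = 2.76e-05). It is the only member detected on all 27 arrays. Leaving out astrocyte array 2 gave 0.80 and leaving out neuron array 1 gave 0.89, both under the minimum.

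Of the 5 potassium channel genes lower in neurons, 3 were also detected on every neuron array. Kcne1l, an accessory subunit of voltage-gated pores, was at 7.04, 7.80 and 7.25 in neurons and 9.10, 8.73 and 9.27 in astrocytes (-1.67). Kcnf1, a modulatory subunit that forms no channel alone, was at 6.84, 7.03 and 6.49 in neurons and 8.11, 8.73 and 8.04 in astrocytes (-1.51). Kcnk10, a two-pore channel of the TREK kind, which stretch and lipids open, was at 4.79, 5.15 and 5.11 in neurons and 5.97, 6.27 and 6.89 in astrocytes (-1.37), although a second probe gave 0.06. None of these groups overlapped.

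The other two were the two-pore channels Kcnk13 and Kcnk6, on no neuron array. Kcnk13 was at least 14.2-fold lower in neurons (limma adjusted p = 2.73e-18) and Kcnk6 at least 3.74-fold lower (limma adjusted p = 8.94e-11; a second probe gave -0.66). Macrophage-lineage markers moved with them: the list mean was 4.31 to 4.39 on neuron arrays and 8.70 to 9.36 on astrocyte arrays, and 9 of its 13 markers were on no neuron array. The part of such cells in these differences was not tested.

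**Figure D4:**
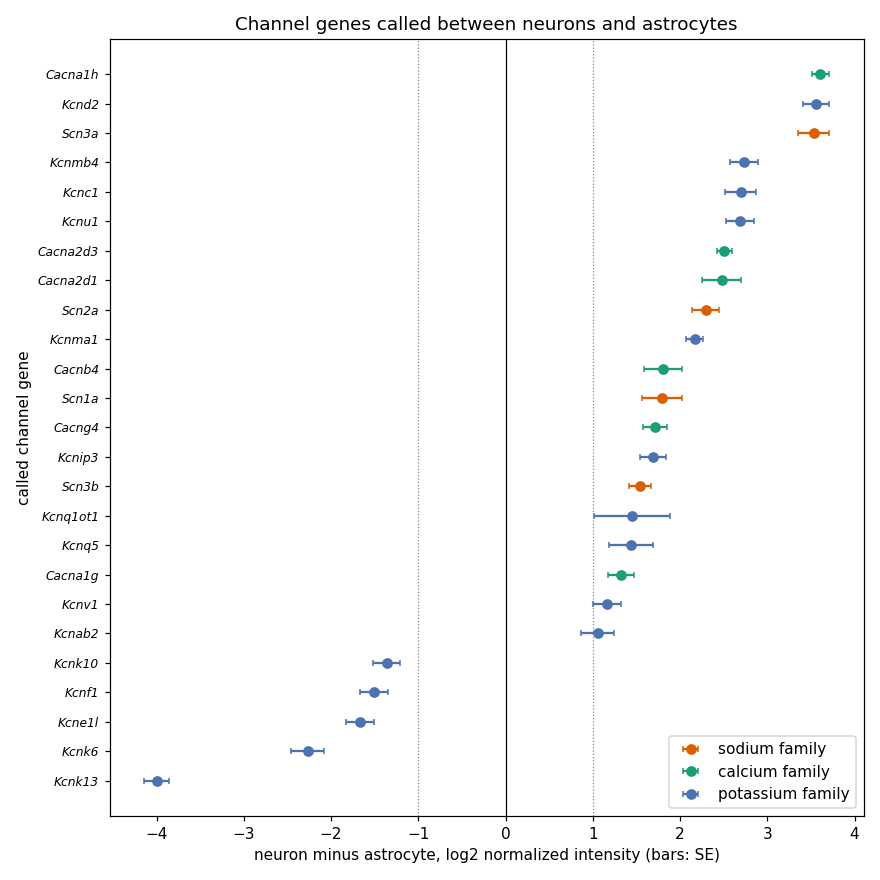
Log2 difference, neurons minus astrocytes (horizontal axis), with its limma standard error (bars), for the 25 channel genes called. 20 genes lie above 0, with Cacna1h, Kcnd2 and Scn3a at 3.53 to 3.61, and 5 below, with Kcnk13 farthest at -4.00.

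Other members were present in both neurons and astrocytes and low or undetected in the rest. Kcna6, a Shaker-type pore, was at 9.86, 9.19 and 8.68 in neurons and 9.18, 9.0 and 8.74 in astrocytes. These overlap, and the limma adjusted p was 0.273 (0.27 ± 0.20 SE). Kcnk2, the TREK channel opened by stretch and lipids, was at 8.94, 8.59 and 9.20 in neurons and 8.93, 8.49 and 8.89 in astrocytes (0.14 ± 0.18). Kcnk1, a two-pore channel of weak current, was at 8.10, 8.05 and 8.05 in neurons and 8.58, 8.57 and 8.42 in astrocytes. That difference was small but larger than the spread (-0.45 ± 0.08, limma adjusted p = 2.34e-05).

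Kcnc4, a relative of Kcnc1, was at 6.72, 6.70 and 6.08 in neurons and 6.29, 6.95 and 6.32 in astrocytes, overlapping (-0.02 ± 0.15). Kcnab1, a beta subunit of the Kcna channels, was at 6.49, 7.32 and 5.83 in neurons and 7.54, 7.08 and 7.46 in astrocytes, again overlapping. Cacng5, which like Cacng4 escorts AMPA receptors, was at 6.43, 5.51 and 5.46 in neurons and 6.66, 6.78 and 6.58 in astrocytes.

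The arrays labelled microglia were set against astrocytes, the other glial type, with 3 members higher (16.6% of all genes were) and 13 lower (18.8% of all genes). The median log2 difference was -0.07 over members and 0.02 over all genes. The higher ones were Kcnab2 (2.82), Cacna1f (2.74) and Kcnk6 (1.96, limma adjusted p = 1.41e-09). The largest deficits were in genes that neurons also carried: Kcne1l was at least 21-fold, Kcna6 at least 20.1-fold, Kcnk1 at least 14.7-fold and Kcnf1 at least 12.6-fold lower in microglia. Kcnab1 was at least 6.58-fold lower, Cacna2d1 at least 4.44-fold, Cacng5 at least 4.09-fold, Kcnc1 at least 3.86-fold and Kcnc4 at least 3.68-fold.

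Kcnk2 kept a detectable level in microglia. It was at 5.41, 5.64 and 5.57 in microglia, each detected, against 8.93, 8.49 and 8.89 in astrocytes, a 9.38-fold lower level with no overlap. Cacna1h and Kcnk10 were at least 3.36-fold and 3.33-fold lower, and Cacnb4 was lower by a log2 difference of -1.18. Other probes gave smaller differences for several of these genes (Kcna6 -3.69 and -0.22, Kcnab1 -1.93 and -0.29, Cacna2d1 -1.42 and -0.71, Cacng5 -0.89, Cacnb4 -0.09, Kcnk10 -0.03). Without microglia array 3, Cacnb4 stood at -0.98, under the minimum.

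In every other comparison with neurons, more members were higher in neurons. ESdM had 4 members higher than neurons (20.3% of all genes) and 27 lower (19.7%), and microglia 4 higher (20.5%) and 27 lower (20.1%). Neurons had 28 members higher than CD8 Tnaive cells (21.1% of all genes) and 2 lower (18.4%), 27 higher than BM-DC (23.5%) and 5 lower (20.1%), and 28 higher than MF (20.3%) and 4 lower (19.6%). These comparisons share the neuron arrays. Members called here and not against astrocytes included Scn2b, at least 2.09-fold higher in neurons than in MF, although its other probes gave 0.52 and 0.09. Against CD8 Tnaive cells, they included the inward rectifier Kcnj4 (1.04) and Kcnh7, a relative of Kcnh2 (1.01). For astrocytes, 13 members were higher than in CD8 Tnaive cells (22.7%) and 3 lower (17.8%), 12 higher than in BM-DC (20.3%) and 5 lower (15.1%), and 12 higher than in MF (16.8%) and 4 lower (14.4%). ESdM had 4 members higher than astrocytes (16.9%) and 13 lower (18.6%).

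18 members (25% of members, against 8.23% of all genes) were called higher in neurons than in every other group: Scn1a, Scn2a, Scn3a, Scn3b, Cacna1g, Cacna1h, Cacna2d1, Cacna2d3, Cacnb4, Cacng4, Kcnc1, Kcnd2, Kcnip3, Kcnma1, Kcnmb4, Kcnq5, Kcnu1 and Kcnv1. None was called lower there than in every other group (0 members, against 3.96% of all genes). The count of 18 was 9 without background correction, with no share of all genes set beside it. With the astrocyte comparison left out, an alternative chosen after seeing the data, the count was 26, with Cacng5, Kcna6, Kcnab1, Kcnc4, Kcne1l, Kcnf1, Kcnk1 and Kcnk2 added. Astrocytes had 3 members above every other group (4.17%, against 5.6% of all genes): Kcne1l, Kcnf1 and Kcnk10. They had Kcnab2 below every other group, as 0.359% of all genes were.

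The two-pore potassium channels Kcnk13 and Kcnk6 were detected on every ESdM, microglia, BM-DC and MF array. Kcnk13 (THIK-1) carries the resting potassium current of microglia, on which their surveying motility depends. It was at 9.92, 9.89 and 9.92 in ESdM 20, 9.91, 9.91 and 9.29 in ESdM 22, and 8.81, 9.05 and 9.13 in microglia. Neurons (4.45, 4.35 and 4.47) and CD8 Tnaive cells (4.26, 4.63, 4.34, 4.35 and 4.30) were at background. Astrocytes had 8.28, 8.66 and 8.33, BM-DC 7.86, 8.18 and 8.09, and MF 9.75, 9.95, 9.79 and 9.80. In order of mean, ESdM and MF were highest and did not differ beyond their spread (-0.02, limma adjusted p = 0.927). Microglia followed, below MF by less than the minimum difference (-0.82, limma adjusted p = 1.24e-05), and BM-DC were below MF by 1.78 on the log2 scale (-1.78, limma adjusted p = 4.65e-11). Its second probe was detected on 0 arrays.

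Kcnk6 (TWIK-2), a potassium exit route upstream of the NLRP3 inflammasome in macrophages, was at 9.58, 9.74 and 9.64 in ESdM 20 and 9.42, 9.47 and 9.30 in ESdM 22. Microglia had 8.63, 8.21 and 8.53, astrocytes 6.99, 6.03 and 6.47, BM-DC 8.68, 8.02 and 7.95, and MF 9.91, 9.87, 9.72 and 9.92. Every ESdM array lay above every microglia array, and the highest ESdM array overlapped the MF range.

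Against microglia, Kcnk6 was the 1 member called higher in ESdM (0.601% of all genes were), and 0 were called lower (1.47% of all genes). Its log2 difference was 1.07 ± 0.17 (SE; limma adjusted p = 4.55e-05), just past the minimum, and a second probe gave 0.77. Without background correction the difference was 0.94 and with the mean of all probes 0.92, both under the minimum. Within each of the 2 chips that microglia and ESdM shared, it was 0.91 (limma adjusted p = 0.165) and 1.15 (limma adjusted p = 0.00441), and without microglia array 2 it was 0.95. Kcnk13 was also higher in ESdM, by less than the minimum (0.81, limma adjusted p = 5.19e-05). Macrophage-lineage markers had list means of 8.05 to 8.18 in ESdM and 8.65 to 8.85 in microglia. C1qb and C1qc were on no ESdM array and on every microglia array, and C1qa was on no array of either; their part in the difference was not tested.

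Against MF, microglia had 3 members higher (11% of all genes) and 2 lower (11.5%), and ESdM 2 higher (11.5%) and 1 lower (12.1%). Both comparisons use the same MF arrays. Kcnn4, the calcium-activated potassium channel that sustains calcium entry in activated T cells and macrophages, was the lower gene in both. It was on no ESdM array and no microglia array (4.18 to 4.43), and at 7.49, 7.61, 7.70 and 7.58 in MF. Against MF it was at least 7.85-fold lower in ESdM (-3.31, limma adjusted p = 8.86e-20) and at least 7.74-fold lower in microglia (-3.36 ± 0.12 SE, limma adjusted p = 4.12e-18).

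Kcnn4 was also at 8.08, 8.21 and 8.32 in BM-DC and 7.45, 7.05, 6.99, 7.08 and 7.26 in CD8 Tnaive cells. The order by mean was BM-DC, MF and CD8 Tnaive, with neighbours apart by less than the minimum: BM-DC above MF by 0.61 (limma adjusted p = 0.000108) and CD8 Tnaive below MF (-0.43, limma adjusted p = 0.000782). In neurons and astrocytes it was near background, detected on 1 astrocyte array. Microglia were also lower than MF in Kcnk6 (-1.40, limma adjusted p = 2.7e-07), whereas ESdM were not called (-0.33, limma adjusted p = 0.0696); the direct contrast of ESdM with microglia is given above.

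Cacna1f, an L-type calcium pore known from photoreceptor synapses, was the 1 member higher in both microglia and ESdM than in every other group (2.22% of all genes were). It was at 7.25, 7.14 and 7.11 in ESdM 20, 7.02, 7.26 and 7.86 in ESdM 22, and 7.11, 7.37 and 7.02 in microglia. Every array of the 5 other groups lay between 4.19 and 4.70, and 2 of those arrays detected the gene (1 astrocyte, 1 MF). Against MF the log2 difference was 2.80 in ESdM (limma adjusted p = 1.75e-16) and 2.69 ± 0.14 in microglia (SE; limma adjusted p = 1.91e-14). ESdM and microglia overlapped (0.11, limma adjusted p = 0.797). A single probe carries this result: the gene's second probe was detected on 0 arrays.

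Kcnh2 (ERG1), the pore known for repolarising the heart, was at 5.58, 5.49 and 5.58 in ESdM 20, 5.28, 5.21 and 5.67 in ESdM 22 and 5.40, 5.49 and 5.42 in microglia. No MF array detected it (4.22 to 4.33). The MF level was exceeded at least 1.83-fold in ESdM (limma adjusted p = 1.15e-10) and at least 1.79-fold in microglia (limma adjusted p = 6.03e-09). Without background correction the ESdM difference shrank to 0.43. Neurons held it too, at 5.78, 5.34 and 5.51. Microglia exceeded MF in Kcnk2 as well, by at least 1.92-fold (1.19, limma adjusted p = 1.01e-06). Against MF, the microglia differences in Kcnk2 and Kcnh2 were 0.98 and 0.97 with median scaling and both 0.42 without background correction, under the minimum.

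BM-DC were set against MF, both grown from bone marrow, with 2 members higher (7.51% of all genes) and 2 lower (10.2%). Kcnh6 (ERG2), a relative of Kcnh2 found mainly in the nervous system, was at 6.09, 6.02 and 6.33 in BM-DC and 4.99, 4.71, 4.66 and 4.80 in MF. Every BM-DC array lay above every other array of the series, and the difference from MF was 1.35 ± 0.17 (SE; limma adjusted p = 1.81e-07). Kcnh6 was the 1 member called higher in BM-DC than in every other group (3.07% of all genes). A second probe gave -0.15, and without background correction the difference was 0.53.

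Scn3a, the embryonic sodium pore described in neurons, was at 6.25, 5.31 and 6.15 in BM-DC and 4.50, 4.90, 4.36 and 4.36 in MF. The groups did not overlap (1.37 ± 0.17, limma adjusted p = 1.65e-07), though the difference was 0.51 without background correction. Kcnk6 (-1.64, limma adjusted p = 3.04e-08) and Kcnk13 were the lower members. Granulocyte and platelet markers stood at list means of 7.58 to 7.95 in BM-DC and 5.87 to 6.17 in MF. Macrophage-lineage markers stood at 9.89 to 10.17 in BM-DC and 10.79 to 10.95 in MF. The part of either list in these differences was not tested.

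CD8 Tnaive cells had 1 member higher than MF (14.4% of all genes) and 2 lower (16.7%). Kcnc1, the fast-firing pore, was at 7.04, 7.72, 7.43, 7.24 and 8.16 in CD8 Tnaive cells and on no array of ESdM, microglia, BM-DC or MF. The CD8 Tnaive level was at least 7.58-fold that of MF (3.30 ± 0.14 SE, limma adjusted p = 8.43e-17). Kcnk13 was at least 36.2-fold lower in CD8 Tnaive cells (limma adjusted p = 5.66e-23). Kcnk6 was at 5.06, 4.90, 4.47, 4.91 and 4.95 in them, lower than MF by a log2 difference of -5.00 (limma adjusted p = 9.85e-20).

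Kcnab2 was bright throughout the blood-lineage and ESdM arrays. It was at 10.97, 11.47, 10.97, 11.13 and 11.47 in CD8 Tnaive cells and 10.60, 10.64, 10.39 and 10.33 in MF, which did not overlap but differed by less than the minimum (0.72, limma adjusted p = 0.000263). BM-DC had 9.98, 9.57 and 9.71, ESdM 20 had 9.94, 10.03 and 10.12, ESdM 22 had 10.25, 10.20 and 10.41, and microglia had 10.24, 10.21 and 10.23. The astrocyte arrays, at 6.90 to 7.75, were the lowest of the series.

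**Figure D5:**
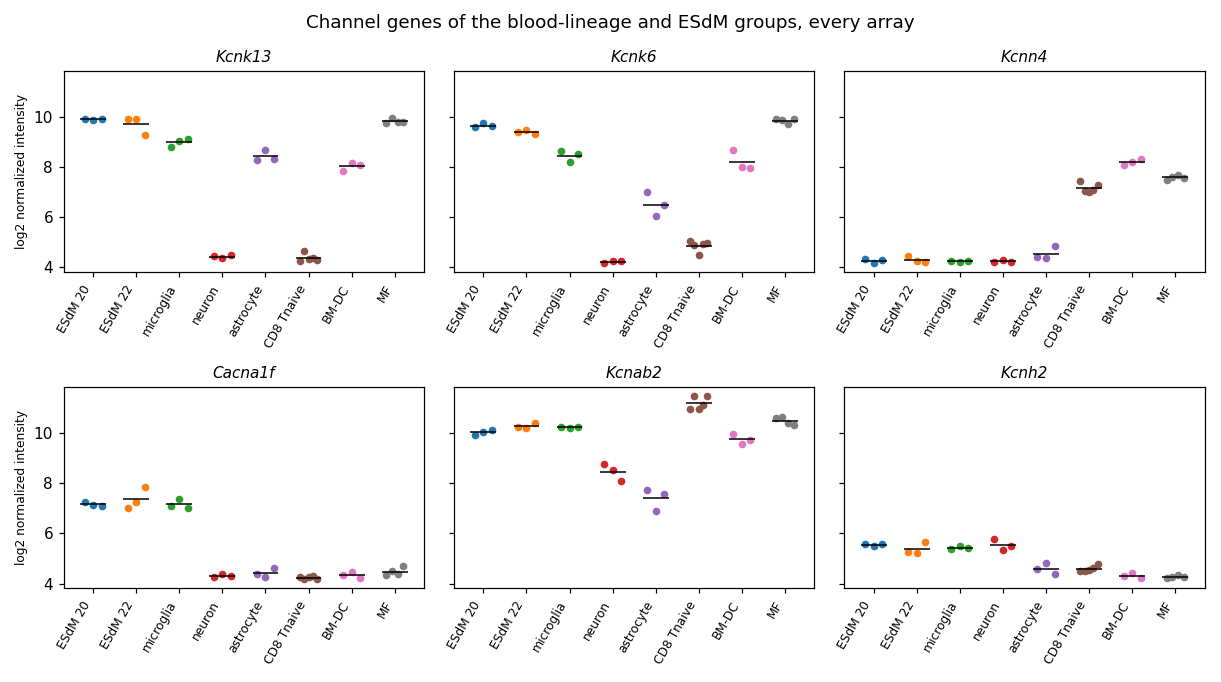
Log2 normalised intensity (vertical axis) of Kcnk13, Kcnk6, Kcnn4, Cacna1f, Kcnab2 and Kcnh2 on every array (points), with group means as lines. Kcnn4 is near background in ESdM and microglia and between 6.99 and 8.32 in CD8 Tnaive, BM-DC and MF, while Cacna1f shows the opposite arrangement.

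Set against BM-DC, ESdM had 4 members higher (15.9% of all genes) and 3 lower (13.7%), and microglia 3 higher (14.9%) and 3 lower (12.4%). Cacna1f and Kcnh2 were higher in both, and the lower genes were Kcnn4, Scn3a and Kcnh6 in both, with the same BM-DC arrays in each comparison. The Kcnn4 level was at least 12-fold lower in ESdM and at least 11.8-fold lower in microglia. Kcnk13 (1.76, limma adjusted p = 3.65e-12) and Kcnk6 (1.31, limma adjusted p = 1.44e-07) were also higher in ESdM, and Kcnk2 in microglia (at least 1.92-fold).

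Set against CD8 Tnaive cells, ESdM had 3 members higher (18.2% of all genes) and 3 lower (14.8%), and microglia 4 higher (18%) and 2 lower (14.8%). Kcnk13 was at least 35.8-fold higher in ESdM and at least 20.5-fold higher in microglia, and Kcnc1 at least 7.45-fold and 7.35-fold lower. CD8 Tnaive cells against BM-DC had 2 members higher (17.7%), Kcnc1 and Kcnab2, and 5 lower (16.7%). Those lower were Kcnk13, Kcnk6, Kcnh6, Scn3a and Kcnn4, the last by a log2 difference of -1.04 (limma adjusted p = 7.69e-09).

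The ESdM lines were compared with each other, and no member was called in either direction (0% of all genes in both directions). At an unadjusted p below 0.05, 1 member differed in the limma fit, Cacna1c, a pore of L-type channels, which was detected on 1 of the 6 arrays. Over all genes, 228 were higher and 299 lower in ESdM 22 at that unadjusted level.

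The other 34 members were called in no comparison: Cacna1a, Cacna1b, Cacna1c, Cacna1d, Cacnb1, Cacnb2, Cacng2, Cacng7, Kcna10, Kcna3, Kcnd1, Kcne1, Kcne2, Kcne4, Kcnh4, Kcnip1, Kcnip4, Kcnj11, Kcnj14, Kcnj16, Kcnj2, Kcnj3, Kcnj5, Kcnj6, Kcnj8, Kcnk5, Kcnk9, Kcnn1, Kcnn2, Kcnq1, Kcnq3, Kcnt1, Scn10a and Scn4b. Their group means spanned from 0.12 (Kcnj11) to 0.87 (Kcnt1) between the lowest and the highest group. Kcnt1, a sodium-activated potassium channel, was at 5.56, 4.96 and 4.73 in neurons and on no astrocyte array, a log2 difference of 0.86 that passed the p threshold but not the minimum (limma adjusted p = 1.01e-05). Kcna3, the Shaker-type pore known from T cells, was among these uncalled genes.

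Genes that work with these channels were taken from lists chosen with earlier results known. Among 19 tested partners that anchor or modulate channels, 11 were higher in neurons than in astrocytes and 0 lower (14.8% of all genes were higher and 17.6% lower), with a median log2 difference of 1.37, against -0.003 over all genes. Ank3, the ankyrin that gathers sodium channels at the axon initial segment, led with means of 11.69 in neurons and 6.26 in astrocytes (5.44, limma adjusted p = 3.99e-21), with other probes at 0.58 and 3.7. Cntnap2, which clusters Kcna channels beside the node of Ranvier, was higher by 2.91 (limma adjusted p = 9.1e-14), and by 1.19 on a second probe. For Fgf13, which binds sodium channel tails, the log2 difference from MF was 3.59 in CD8 Tnaive cells and 1.22 in BM-DC. Its other probes gave 0.11 and 0.87 in CD8 Tnaive cells and 0.19 and 0.23 in BM-DC.

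Intracellular and store-operated calcium genes (13 tested) had 2 higher and 4 lower members in neurons than in astrocytes, where 14.8% of all genes were higher and 17.6% lower. The ryanodine receptors Ryr3 and Ryr2, which release stored calcium, were at least 5.16-fold and 3.73-fold higher, and Orai1 (-1.41) and Stim1 (-1.66), the pore and sensor of store-operated entry, were lower. Stim1's other probes gave 0.1 and -0.02. For the comparisons with MF, the shares of all genes higher and lower are those given above with the members. Microglia had 1 higher and 2 lower than MF, among them the calcium pump Atp2a3 at least 16.3-fold lower. ESdM had 3 higher and 1 lower, again with Atp2a3 lower (at least 16.5-fold). The log2 difference of Atp2a3 from MF was 2.59 in CD8 Tnaive cells and 1.90 in BM-DC. Of its other probes, one moved likewise in each of these comparisons with MF (-3.14 in microglia, -3.13 in ESdM, 2.51 in CD8 Tnaive cells, 1.95 in BM-DC), and another stayed between -0.05 and 0.34.

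Other cation channels (21 tested) had 5 higher and 4 lower members in neurons than in astrocytes, against the same shares of all genes (14.8% and 17.6%). The receptor-operated channel Trpc4 was at least 5.18-fold higher (a second probe gave 0.47), and the proton channel Hvcn1 at least 1.85-fold lower (a second probe gave -0.57). Against microglia, ESdM had 2 higher, the endolysosomal channels Tpcn1 (1.31, limma adjusted p = 1.67e-06) and Tpcn2 (1.09, limma adjusted p = 3.98e-05), and 0 lower; 0.601% of all genes were higher and 1.47% lower. The other probes of Tpcn1 gave 0.55 and 0.31. Against MF, microglia had 1 higher and 5 lower, with Tpcn2 (-2.33) and Hvcn1 (-1.87) among the lower. The shares of all genes in that comparison are given above with the members. Of 15 tested chloride channels, neurons had 2 higher and 4 lower than astrocytes, again beside 14.8% and 17.6% of all genes. BM-DC had 3 higher than MF and 0 lower, led by the calcium-activated channel Best1 (3.65, limma adjusted p = 9.43e-21). The shares of all genes for BM-DC against MF are likewise given above.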

How the data were processed

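RNA of the 27 samples was extracted with Trizol and an RNeasy kit, amplified and biotin-labelled, and hybridised to Illumina mouse bead arrays, per the labels' protocols. The authors deposited a probe table of unnormalised signal intensity with a detection p-value for each array, per the file headers; other processing is not given in the sources used here. A deposited matrix of processed intensities of the same arrays, taken to log2, served as an alternative. Intensities of 45281 probes were corrected and normalised with neqc (offset 16, quantile) of limma 3.58.1 in R 4.3.3. Probes with a detection p-value below 0.05 on at least 3 arrays were kept (25001); a gene took its probe of highest mean. One model with a mean per group (19 residual degrees of freedom) was fitted to 12814 genes, with Benjamini-Hochberg adjustment per comparison and a minimum log2 difference of 1. ESdM is the mean of both line means. Genes were named by a rule: up to 10 members of largest rise and fall per comparison and members above or below every other group, with further members and list genes chosen after their values were seen. Gene names came from the platform annotation (34885 probes with 1 symbol, 18 with several, 10378 with none). Members and gene lists were chosen with earlier results of these data known. Precision is limited by how many arrays each group has. The fit was tested on simulated data. Alternatives covered background correction, scaling, filter, probe choice, minimum fold, chip and replicate blocks and leaving out each array.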

Additional observations from a re-analysis of the deposited data

Results flagged for a closer look

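Among 25 combinations of a member and a group large enough to look at, 3 held an array far from the others of its group. The cut used is passed by chance about 1 time in 20. A combination entered only when at least 1 array of the group detected the gene, so the count cannot be set against that rate. All were CD8 Tnaive arrays. Kcna6 was at 4.80 on array 4, against 4.17 to 4.29 on the other arrays of the group, none of which detected it. Kcnk6 was at 4.47 on array 3, against 4.90 to 5.06. Scn2b was at 6.00 on array 5, against 4.26 to 4.49, and was detected on no other array of that group.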

How the results depend on the processing

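Over 57 pairs of a member and a comparison, all of them called in the main fit, 891 alternative values were computed. Of these, 830 kept their direction and call, 61 kept the direction without the call and 0 reversed. The pairs were picked for large differences, so few could reverse, and dropping the minimum fold could not end a call. In 34 of the 57 pairs the call held in every alternative. Without background correction, and likewise with the deposited processed matrix, fewer members were called: 13 in neurons against astrocytes, 3 in microglia against MF, 0 in ESdM against microglia, 2 in BM-DC against MF, 9 highest in neurons and 0 highest in BM-DC. The mean of all probes gave 0 for ESdM against microglia and 0 highest in BM-DC. With no minimum fold the counts were 38 in neurons against astrocytes, 9 and 6 in microglia and ESdM against MF, 2 in ESdM against microglia, 8 and 13 in BM-DC and CD8 Tnaive against MF, 26 in microglia against astrocytes, and 6, 1 and 2 highest in astrocytes, CD8 Tnaive and BM-DC. The count highest in neurons was 26 when the astrocyte comparison was left out, chosen after seeing the data. Median scaling ended the calls of Kcnab2 in neurons against astrocytes (0.80) and of Kcnk2 (0.98) and Kcnh2 (0.97) in microglia against MF. Counts over all genes in these settings, and with arrays left out below, are not set beside the counts of members. No change is read as particular to the members. The causes were not tested.

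Leaving out each array in turn gave 23 to 27 members in neurons against astrocytes, 15 to 16 in microglia against astrocytes, 0 to 1 in ESdM against microglia, 17 to 19 highest in neurons and 3 to 4 highest in astrocytes. The other counts held at 5 (microglia), 3 (ESdM), 4 (BM-DC) and 3 (CD8 Tnaive) against MF, 0 between ESdM lines, and 1, 1, 0 and 0 highest in BM-DC, in microglia and ESdM, in CD8 Tnaive and in MF. With the replicate number as a block every one of these counts stayed at its value (25 in neurons against astrocytes, 16 in microglia against astrocytes, 18 highest in neurons). Over 85 pairs of same-numbered arrays, pooled across groups, the median correlation of deviations was -0.00419, with 6 over 0.1. Single pairs ranged from -0.356 to 0.252. No pairing by number showed over the pairs as a whole, and pairing between particular groups was not tested. Faint members lie within reach of the background, where the array measures little of a difference.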
